A study of Mus musculus with 3 samples.

Results

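DNase I cuts open chromatin, and a protein sitting on the DNA shields the bases under it, so that a short stretch of few cuts, a footprint, remains inside a hypersensitive site. The regions described here are the wide footprints that all libraries of embryonic mouse liver share: footprints of replicate 1 at least 25 bp wide that overlap, by at least 50% of the length of both, a footprint of replicate 2 and a footprint of replicate 3. There were 6806 such regions among the 89836 footprints of replicate 1. They were chosen by measured values, the widths and positions of the footprints, so widths and sharing are given as a description with no test. They were set against the 5221 footprints of replicate 1 that were 7 to 12 bp wide and shared by the same overlap, called narrow shared footprints here.

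The study is a DNase-seq experiment on liver of mouse embryos at 13.5 days, with 3 libraries labelled biological replicates 1, 2 and 3, and so 1 group and no control condition. All 3 came from mice labelled as strain C57BL/6N,129, wild type with the A20 YAC (a yeast artificial chromosome, present as a single copy), and the labels give sex as not collected. The 3 libraries have separate biosample numbers but share 1 donor label, so their spread may be partly technical. Replicates 1, 2 and 3 held 89836, 342756 and 156638 footprints and 34369, 122281 and 60862 peaks on the looser of the 2 deposited peak lists. The number of reads behind each library is not stated, so the depth is unknown. Of the promoters of 24 erythroid regulators, 21 held a peak in all 3 libraries, against 7 of 17 for liver regulators and 1 of 20 for plasma protein genes made by hepatocytes. Over all protein-coding genes 11223 of 21827 did, and on a list of housekeeping genes 20 of 20. A high count was thus not particular to the erythroid list. Red cell precursors fill the fetal liver at this age, and the secretory genes of hepatocytes, which define the labelled organ in the adult, mostly had no promoter peak in all 3 libraries. Replicate 1 stands apart in several values below, among them the CTCF share of wide footprints and the GC and CpG content of narrow ones, and in place: 68.8% of its footprints of 7 to 12 bp lay within 1000 bp of a start site, against 42.1% and 45.4% in replicates 2 and 3.

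The width of a footprint depends on how much DNA the bound protein covers and on whether neighbouring proteins merge their protected stretches. CTCF, a zinc finger protein that stops cohesin and anchors chromatin loops, contacts a long site through many fingers, and a subset of its sites carries a further upstream element that other fingers of the protein read. GATA1, the main regulator of red cell genes, binds a short site, often beside an E-box bound by TAL1. SP and KLF family zinc finger proteins bind GC boxes and CACCC boxes at promoters, CREB and ATF proteins bind the cyclic AMP response element (CRE), ZBTB33 (Kaiso) binds a CpG-rich palindrome, and NRF1 drives genes for mitochondrial and ribosome functions.

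The sequences of members show the main pattern found, so a few are printed first. They are read from the RefSeq genome GRCm38.p6, which is mm10, over the footprint as called in replicate 1. Those with the CTCF motif are given 5′ to 3′ on the strand of the match. The first 4 are members whose footprint reached at least 15 bp upstream of the match in all 3 libraries and that carry the 5 letters GCAGT starting 16 bp upstream of it. The next 4 are members whose footprint stopped short of that in all 3. In each set they are those in the peaks with the highest signal rank. Capitals mark the match, and in the first 4 also the upstream letters.
chr9:65196941-65196983, plus strand: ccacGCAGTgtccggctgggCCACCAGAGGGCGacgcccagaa
chr2:167685302-167685348, plus strand: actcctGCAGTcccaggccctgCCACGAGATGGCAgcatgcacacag
chr10:80578563-80578600, plus strand: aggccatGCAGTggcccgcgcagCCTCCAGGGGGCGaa
chr2:32487290-32487330, minus strand: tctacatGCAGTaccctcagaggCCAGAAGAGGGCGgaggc
chr3:142882042-142882068, minus strand: ccgcCCAGCAGGGGGCGgggccccgcg
chr15:5116477-5116505, minus strand: acaCCGGTAGGGGGCGtgcctggcgctgt
chr1:86525460-86525492, minus strand: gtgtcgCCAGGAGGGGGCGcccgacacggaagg
chr1:165460555-165460580, minus strand: agggCCGGGAGGGGGCGtggtctagg

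Of the first set, the region on chromosome 9 lies 275 bp upstream of the start site of Gm25313 and was 43, 46 and 48 bp wide in replicates 1, 2 and 3. The chr2:167685302 region lies in an intron 3590 bp upstream of the start site of Cebpb, a leucine zipper factor of liver and myeloid cells, and was 47 bp wide in each library. Of the second set, the chromosome 3 region lies 51 bp upstream of Pkn2 and was 27, 29 and 27 bp wide. The chromosome 15 region, 154 bp upstream of the ribosomal protein gene Rpl37, was 29, 46 and 45 bp wide. Its upstream edge was 3 bp beyond the match in all 3 libraries, and it was the downstream edge that moved, with 13, 30 and 29 bp.

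Members with other motifs that differed between the classes are shown next, on the plus strand, with every match to any of the 30 motifs searched in capitals. Each is the member with that motif in the highest ranked peaks, outside UTRs.
CRE, chr2:26140515-26140552: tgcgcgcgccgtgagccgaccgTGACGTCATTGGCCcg
ZBTB33, chr5:45669855-45669895: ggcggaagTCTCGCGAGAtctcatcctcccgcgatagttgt
NFI, chr10:81382137-81382166: agggcagccTTGGCAGCATGCCAAgctctg
E-box, chr4:135272866-135272899: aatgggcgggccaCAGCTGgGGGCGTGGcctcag
The CRE member lies 13 bp upstream of Tmem250-ps and was 38, 44 and 46 bp wide in replicates 1, 2 and 3, and its CRE runs into a CCAAT box, the site of NFY. The ZBTB33 member lies 44 bp upstream of Ncapg, a condensin subunit, and was 41, 45 and 45 bp wide. The NFI member is intergenic, 2276 bp upstream of Dohh.

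Under the reciprocal overlap rule, wide footprints were shared far more often than narrow ones. Of the 8033 footprints of replicate 1 at least 25 bp wide, 84.7% were shared, against 52.2% of the 22161 of 13 to 24 bp and 8.75% of the 59642 of 7 to 12 bp. At the limit of the rule, 1363 of 1698 footprints of 25 to 26 bp were shared, and of those of 23 to 24 bp just outside it, 1739 of 2198. Of the 1227 wide footprints of replicate 1 that were not shared, 1027 had a partner in replicate 2 and failed only in replicate 3, 99 failed only in replicate 2 and 101 failed in both. The rule also rejects a narrow footprint that lies inside a much wider partner. Of the 54421 footprints of 7 to 12 bp not shared, 36117 overlapped no footprint in replicate 2, replicate 3 or both. The rest overlapped one in each and failed on the overlap fraction alone, so part of the difference in sharing comes from the rule. Of the 1227 wide ones, 356 lacked any overlap in replicate 2, replicate 3 or both.

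The members had a median width of 30 bp in replicate 1, 36 bp in replicate 2 and 32 bp in replicate 3. They were wider in replicate 2 than in replicate 1 at 80.4% of the regions, and in replicate 3 at 54.5%. Of the 6806, 5612 (82.5%) were at least 25 bp wide in all 3 libraries. Both edges lay within 3 bp of those of replicate 1 at 46.1% of the members in replicate 2 and at 47.1% in replicate 3. The narrow shared footprints had median widths of 10, 13 and 11 bp. Across the members, Spearman's rho of the width in replicate 1 with that in replicate 2 was 0.53 and with that in replicate 3 was 0.52, over 6806 regions that share each library's depth, and with widths below 25 bp in replicate 1 left out by the rule.

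Among the widest members, taken by the smallest of their 3 widths, the first was chr9:3024091-3024188 near Gm10718, with 98, 99 and 99 bp. It lies in repeat-masked sequence, and 23 members, all repeat-masked, fall at chr9:3000574-3029855. Whether reads there map to a single copy was not tested. Outside that block the widest was chr2:165884719-165884790, 4 bp upstream of a start site of Zmynd8, with 72, 73 and 73 bp, and it overlaps an annotated UTR and holds a CCAAT box. The promoter of Agbl5 held one of 63, 65 and 64 bp, 793 bp upstream of a start site. Another, intergenic and 7250 bp upstream of Eef2k, was 62, 66 and 65 bp wide and is printed here because its width is nearly the same in each library while its only match is to the short GATA site, in capitals.
chr7:120835550-120835611: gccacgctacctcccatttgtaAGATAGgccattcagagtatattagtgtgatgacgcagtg

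The CTCF motif was held by more members than any other of the 30 motifs searched. In windows of 50 bp centred on the footprint, searched on both strands, 29.0% of the members (1973 of 6806) held it, against 1.69% of the narrow shared footprints (88 of 5221), a ratio of 17.1. Windows of the same length 100 bp to either side held it in 0.441% at the members and 0.584% at the narrow footprints, and it was in 6.93% of all footprints of replicate 1. With each library split by its own widths, the share was 30.9% in wide against 3.08% in narrow footprints of replicate 1, 16.9% against 1.14% in replicate 2 and 14.7% against 2.53% in replicate 3. The mean was 20.8 ± 8.80% in wide and 2.25 ± 1.00% in narrow footprints (SD, n = 3 libraries), a difference of 18.6 ± 8.21 percentage points, higher in 3 of 3 libraries. The exact two-sided sign-flip permutation test over the libraries gave p = 0.25, which is the smallest p that 3 libraries allow, so no difference in this section can pass a threshold of 0.05. The motif read back to front, with the same base composition, was in a ratio of 0.402 in the shared sets.

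**Figure D1:**
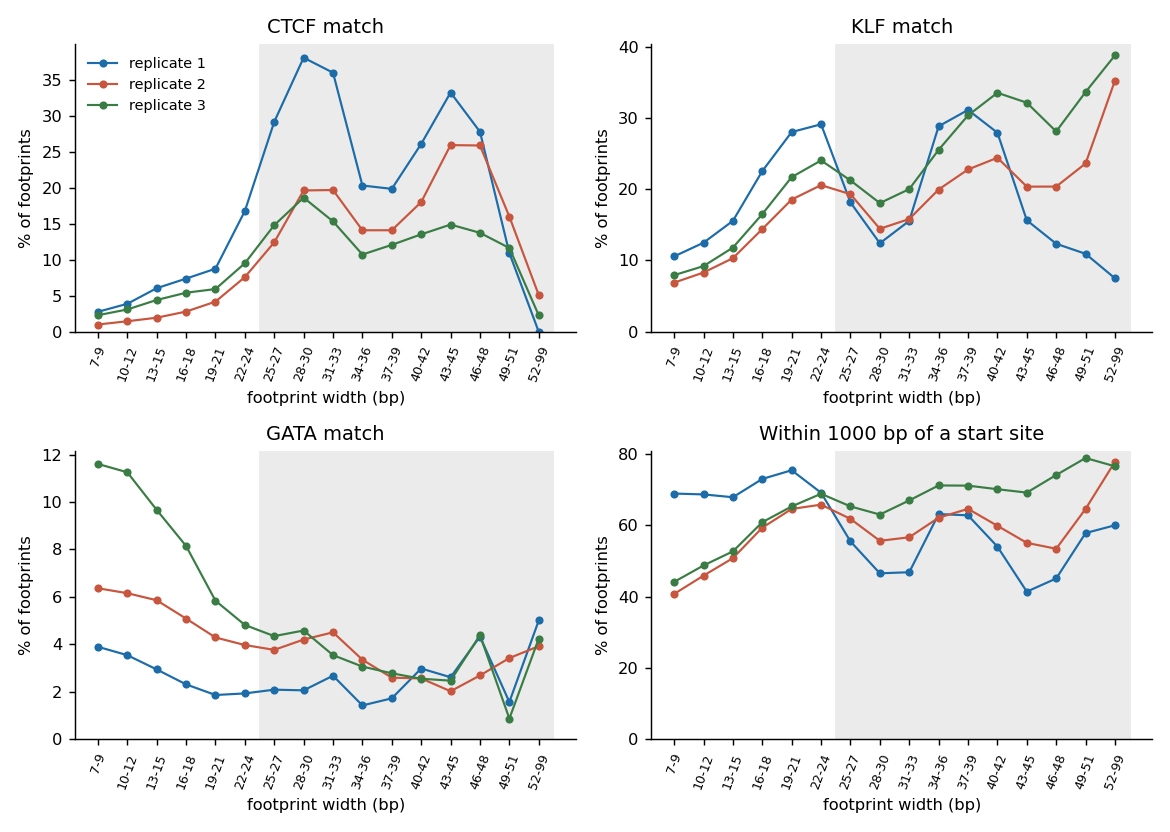
Share of footprints (y axis, percent) by footprint width (x axis, bp), for all footprints of each library. The panels give the share with a CTCF, KLF or GATA match in the 50 bp window centred on the footprint, and the share within 1000 bp of a start site. The grey band marks widths of 25 bp or more. The CTCF share has a local maximum at 28 to 33 bp in all 3 libraries and another at 43 to 48 bp, the higher of the pair in replicate 2, where the promoter share of replicates 1 and 2 dips. The GATA share is highest among the narrowest footprints in replicates 2 and 3. In replicate 1 it is 3.89% at 7 to 9 bp, and only the small bins of 46 to 48 bp (162 footprints) and 52 to 99 bp (40 footprints) are higher.

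The CTCF share did not climb steadily with width. In replicate 1 it was 2.78% at 7 to 9 bp and 38.1% at 28 to 30 bp, then 19.8% at 37 to 39 bp and 33.2% at 43 to 45 bp. In replicate 2 it was 1.01% at 7 to 9 bp, 19.7% at 31 to 33 bp, 14.1% at 37 to 39 bp and 25.9% at 43 to 45 bp. In replicate 3 it was 2.30% at 7 to 9 bp, 18.6% at 28 to 30 bp, 10.7% at 34 to 36 bp and 14.9% at 43 to 45 bp. In each library there was a local maximum near 30 bp and another near 45 bp, which was the higher of the pair in replicate 2 and the lower in replicates 1 and 3.

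At members with CTCF, the upstream edge of the footprint fell at either of 2 distances from the match. At 1969 members the match lay in or within 5 bp of the footprint, 941 on the plus and 1028 on the minus strand. Measured on the strand of the 13-letter match, the upstream edge was most often 5 bp beyond it in replicate 1 (27.5% of these members), 6 bp in replicate 2 (17.1%) and 5 bp in replicate 3 (21.2%). A second mode lay at 21 bp in replicate 1 (3.91%), 23 bp in replicate 2 (7.47%) and 21 bp in replicate 3 (3.71%). The downstream edge had a median of 10, 11 and 9 bp and no second mode of that size beyond 15 bp. The share with an upstream edge at least 15 bp beyond the match was 17.1%, 37.5% and 21.9% in replicates 1, 2 and 3, against 7.06%, 12.6% and 6.30% for the downstream edge. Replicate 2, with the most footprints, had the largest share.

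**Figure D2:**
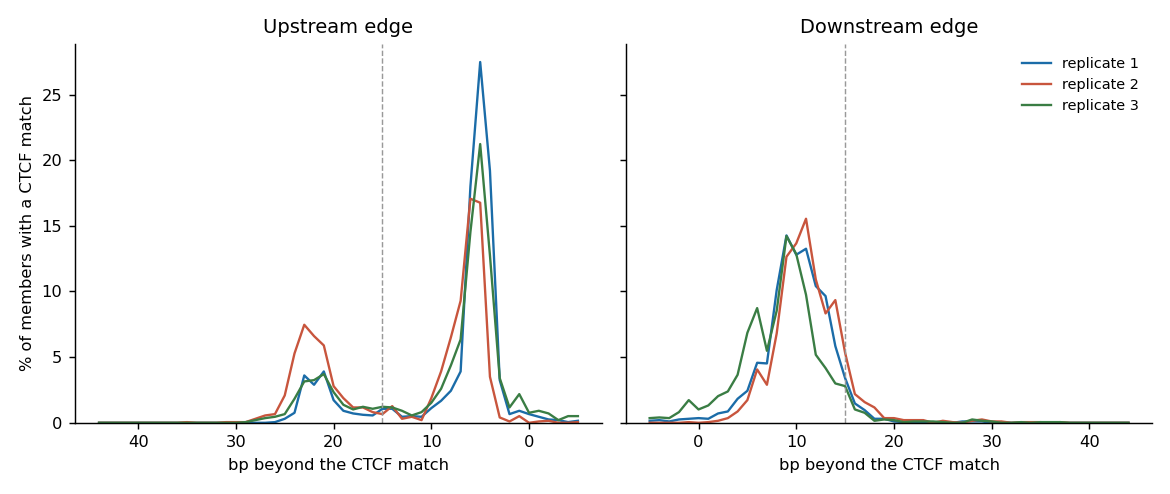
Distance of the footprint's upstream edge (left) and downstream edge (right) from the CTCF match, in bp on the strand of the match (x axes), as the percent of the 1969 members with a match in the footprint (y axis), 1 line per library; the dashed lines mark 15 bp. The upstream edge has modes near 5 and 22 bp in each library, and the downstream edge has its mode at 9 to 11 bp.

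A particular word was more frequent at the longer footprints. The upstream edge was at least 15 bp out in all 3 libraries at 259 members and in none at 1183. Among all 5-letter words in the 25 bp upstream of the match, GCAGT differed most between these sets, with 42.9% of the extended members against 4.82% of the others, so it was picked for its difference and that difference has no test. The counts, edges and widths that follow are of the same members and partly restate that choice, so they are a description. It began exactly 16 bp upstream of the match at 105 of the 259 members (40.5%) extended in all 3 libraries, 28 of 203 (13.8%) extended in 2, 40 of 324 (12.3%) extended in 1 and 6 of 1183 (0.507%) extended in none. The 179 members with it at that position had a median upstream edge of 21, 22 and 20 bp in replicates 1, 2 and 3, against 5, 7 and 6 bp at the 1790 without it. Their median widths were 39, 45 and 37 bp, against 29, 33 and 28 bp. The first set of sequences printed at the start was chosen for this spacing. Of the members extended in all 3 libraries 22.4% lay within 1000 bp of a start site, against 22.2% of those extended in none.

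Within the match itself, its 3 free letters were not evenly filled. At the first of them 72.4% of the 1969 members had A, at the second 52.01% had C and 43.8% G, and at the third 55.1% had C and 21.4% T. Allowing any 1 of the fixed letters of the motif to differ, 51.4% of the members held a match, against 7.14% of the narrow shared footprints and 3.78% of the windows beside the members.

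Of the 30 motifs, 5 (16.7%) had a share at least 1.5 times as high in wide as in narrow footprints in every library without the reversed motif doing the same, and 4 (13.3%) had a share lower by the same factor. Without replicate 1 there were 8 and 2. Those higher in wide footprints were CTCF, KLF (CCNCACCC or CCNCGCCC), CRE (TGACGTNA), ZBTB33 and NFI. Those lower were GATA (the letters GATA between A or T and A or G), the E-box (CAGCTG), FOXA (TGTTTAC, or the same with its G as A) and PU.1 (GAGGAAGT). All were searched on both strands. The SP box (GGGGCGGGG) reads the same back to front and so could not be called, and each SP match is also a KLF match. At least 1 of the 30 motifs was in the window of 64.1% of the members and 39.95% of the narrow shared footprints.

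**Figure D3:**
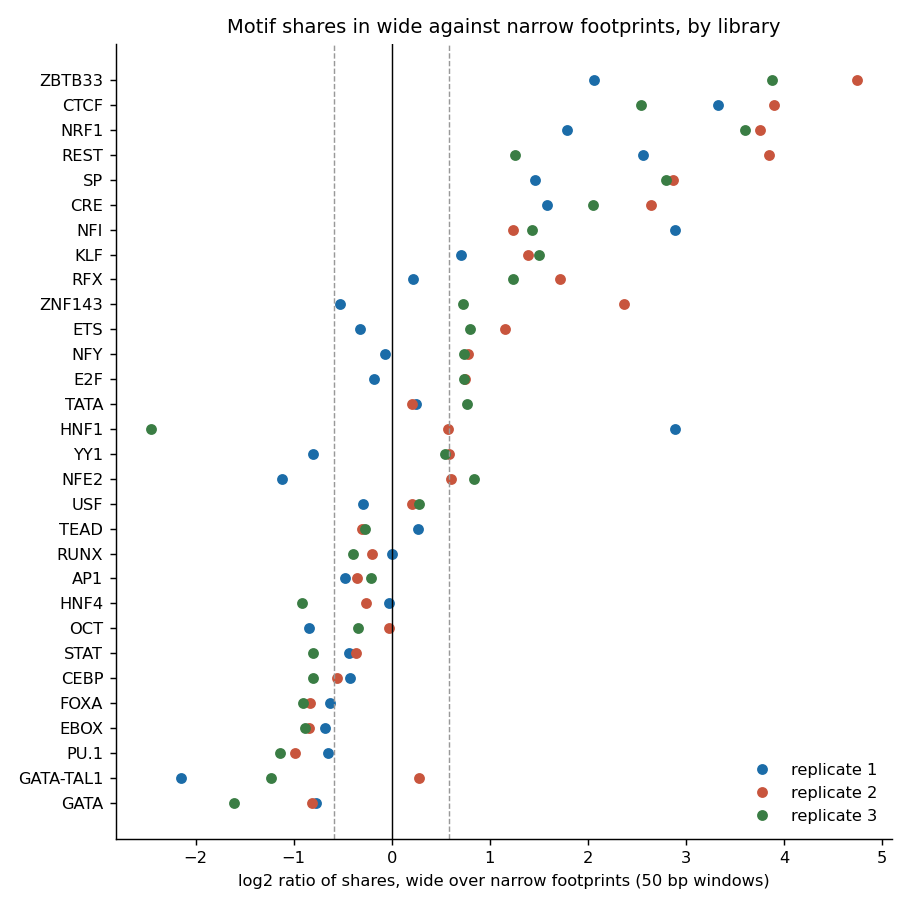
Log2 ratio of the share of wide (25 bp or more) over the share of narrow (7 to 12 bp) footprints that held each of 30 motifs in a 50 bp window (x axis), 1 point per library; dashed lines mark ratios of 1.5 and 1/1.5. CTCF, ZBTB33, CRE and KLF lie right of the dashed line in all 3 libraries and GATA, E-box and PU.1 left of it, while ETS, NFY and YY1 lie on opposite sides of 0 in replicate 1 and in replicates 2 and 3.

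KLF matches were in 20.1% of the members and 12.3% of the narrow shared footprints, and in 8.65% and 10.8% of the windows beside them. By each library's own widths the shares were 18.1% against 11.1%, 19.1% against 7.28% and 23.6% against 8.30%. The reversed KLF string, of the same bases, had ratios of 1.27, 2.40 and 2.73 in the 3 libraries, close to those of the motif in replicates 2 and 3 (2.62 and 2.84), so there the G and C content of the windows moved with it, and its part was not tested. Members held the box in pairs more often: 336 of them (4.94%) had at least 2 KLF matches in the window, against 46 (0.881%) of the narrow shared footprints. The excess of KLF was at promoters, with 32.4% of members against 13.3%, while at distal footprints the shares were 4.31% against 8.85%. SP boxes were in 8.45% of the members and 2.62% of the narrow shared footprints.

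CRE matches were in 2.09% of the members (142) and 0.651% of the narrow shared footprints (34). By own widths the shares were 1.88% against 0.630% in replicate 1, 1.45% against 0.232% in replicate 2 and 1.83% against 0.442% in replicate 3. The reversed CRE string was also more frequent in wide footprints, with ratios of 2.06, 1.48 and 1.16 against 2.99, 6.26 and 4.15 for the motif. In the shared sets its ratio was 1.84. At distal footprints the CRE was in 13 members and 5 narrow shared footprints, at nearly equal shares. The ZBTB33 palindrome was rare and was in 33 members (0.485%) against 7 narrow shared footprints (0.134%), and in the libraries it was 4.18, 26.8 and 14.7 times as frequent in wide footprints. NFI rests on 2 members against 0 narrow shared footprints, and on 10 against 30 windows in replicate 2, which held 33772 wide and 230685 narrow footprints. NRF1 matches were in 2.62% of the members against 1.15%, but the reversed NRF1 string was also at least 1.5 times as frequent in wide footprints of every library, with ratios of 2.06, 5.43 and 7.39, so NRF1 was not called. The long REST site was in 13 members and 1 narrow shared footprint, with ratios of 5.91, 14.4 and 2.39 by own widths. Its reversed string had no match in either class of any library, so for REST the comparison with the reversed string was void, and REST is left out of the 5 on that ground alone. The reversed ZBTB33 and NFI strings also had almost no matches, so that comparison says little for them.

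GATA matches were in 2.20% of the members, against 3.75% of the narrow shared footprints, and in 4.34% and 3.69% of the windows beside them, so the share was lower at the members than beside them and about the same at and beside the narrow footprints. By own widths the shares were 2.22% in wide against 3.796% in narrow footprints of replicate 1, 3.59% against 6.30% in replicate 2 and 3.77% against 11.5% in replicate 3, lower in 3 of 3 libraries (difference -4.01 ± 3.27 percentage points, SD, exact sign-flip p = 0.25). The composite of an E-box and a GATA site at the spacing of TAL1 and GATA1 was in 5 members and 18 narrow shared footprints. The E-box alone was in 1.78% of the members against 2.26%, and by own widths in 1.89%, 2.25% and 1.96% of wide against 3.05%, 4.02% and 3.62% of narrow footprints. FOXA, the site of pioneer factors of liver, was in 19 members against 15 narrow shared footprints, a ratio of 0.965, so its lower share in the libraries did not show in the shared sets. PU.1, the site of a myeloid ETS factor, was in 15 members against 14.

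Place differed between members that held the CTCF motif and those that did not. Of the members with it 23.2% lay within 1000 bp of a start site of any gene, and of those without it 69.4%. By own widths the values were 20.9% against 66.03% in replicate 1, 15.8% against 68.5% in replicate 2 and 23.5% against 74.8% in replicate 3, a difference of -49.7 ± 3.98 percentage points (SD, n = 3, exact sign-flip p = 0.25, lower in 3 of 3). Narrow footprints differed in the same direction, with 38.6% with the motif against 78.4% without it in the narrow shared footprints. In the narrow footprints of replicates 1, 2 and 3 the shares were 18.1% against 70.4%, 16.96% against 42.4% and 15.05% against 46.2%. The lower share near start sites was thus not particular to wide footprints. Members with SP, KLF, NRF1, CRE and ZBTB33 matches lay near start sites in 95.3%, 90.6%, 94.9%, 90.8% and 97.0%, and those with GATA and E-box matches in 42% and 39.7%. The peaks that held members with CTCF ranked at a median percentile of 68.5, 86.9 and 67.2 by signal within replicates 1, 2 and 3, against 89.2, 96.3 and 91.1 for members without it.

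Over all, 56.0% of the members lay within 1000 bp of a start site, 19.4% in introns, 3.81% in exons and 20.8% between genes, against 77.7%, 10.5%, 1.93% and 9.88% of the narrow shared footprints. The direction of the promoter difference depended on which narrow footprints were compared. Among footprints shared by all 3 libraries, wide ones were less often at promoters by the widths of each library, with 56.0% against 77.7%, 64.5% against 75% and 67.9% against 74.6% by the widths of replicates 1, 2 and 3. Among all footprints of a library, wide ones were lower in replicate 1, with 52.1% against 68.8%, and higher in replicates 2 and 3, with 59.6% against 42.1% and 67.2% against 45.4%. The mean difference over libraries was 7.50 ± 21.1 percentage points (exact sign-flip p = 0.5), so it was not larger than the spread between libraries. Requiring sharing between replicates 2 and 3 alone, with the widths of replicate 2, gave a difference of 11.6 points, against -21.7 points for all 3. Of the members 7.51% were more than 50% repeat-masked, against 4.98% of the narrow shared footprints.

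**Figure D4:**
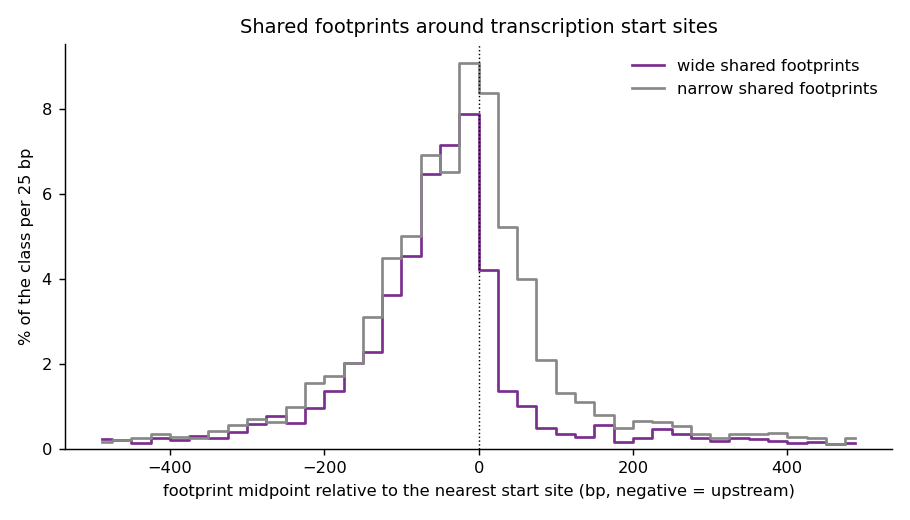
Position of the midpoint of the 6806 wide and the 5221 narrow shared footprints relative to the nearest transcription start site (x axis, bp, negative upstream), as the percent of each class per 25 bp (y axis). Both classes peak in the 25 bp just upstream of the start site, and the narrow class stays high downstream of it while the wide class falls at once.

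Around the start site itself the classes were laid out differently. In the 200 bp upstream lay 35.3% of the members and 38.9% of the narrow shared footprints, and in the 200 bp downstream 8.42% against 23.4%. Taken over footprints within 1000 bp of a start site and by own widths, the share in the 200 bp downstream was 15.04% in wide against 30.8% in narrow footprints of replicate 1, 26.4% against 29.6% in replicate 2 and 20.2% against 27.9% in replicate 3, lower in 3 of 3 libraries (difference -8.93 ± 6.35 percentage points, SD, exact sign-flip p = 0.25). The share in the 200 bp upstream was 62.3% against 39.4%, 50.1% against 23.8% and 59.5% against 36.6%, higher in 3 of 3 by 24 ± 2.01 points.

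Base composition of the 50 bp windows was close in the shared sets and apart in replicates 2 and 3. GC content of the 50 bp windows was 64.1% at members and 63.7% at narrow shared footprints, with 56.9% and 61.3% in windows 100 bp away. By own widths it was 63.6% against 63.2% in replicate 1, 64.0% against 58.7% in replicate 2 and 64.2% against 57.3% in replicate 3, higher in 3 of 3 (4.21 ± 3.37 points, SD, exact sign-flip p = 0.25). CpG per 50 bp was 3.60 at members and 3.94 at narrow shared footprints, and by own widths it was 3.45 against 3.69 in replicate 1, 3.69 against 2.31 in replicate 2 and 3.90 against 2.30 in replicate 3.

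Of the 2080 6-letter words (a word and its reverse complement counted as 1), 48 (2.31%) were at least 1.5 times as frequent in wide as in narrow footprints of every library and 76 (3.65%) were lower by that factor. Without replicate 1 these counts were 170 and 341, without replicate 2 they were 50 and 92, and without replicate 3 they were 61 and 82. Since a word must pass in every library used, leaving one out can only keep or raise them. Ordered by the library with the ratio nearest to 1, the first of the higher words was GCCCCC with ratios of 2.92, 3.11 and 3.23 in replicates 1, 2 and 3. It was followed by AGGGGG with 3.47, 2.88 and 2.73. The word AGCGCC had ratios between 2.53 and 2.80, the word GCGCCA between 2.42 and 2.81, and GCGCCC between 2.29 and 2.97. In the same order, the first of the lower words was ATTAAT, with ratios of 0.395, 0.455 and 0.467. It was followed by TGATAA, with 0.409, 0.529 and 0.303. The ratio was at most 0.532 for AATTAA, at most 0.547 for TAATCA and at most 0.553 for GATAAA. The second and the last of these hold the letters GATA. With the windows that hold the CTCF motif left out, a choice made after the words were seen, GACGTC came first in that order, with ratios of 2.53, 4.10 and 3.13. Next was ACGTCA with 2.52, 3.74 and 2.64, and both lie inside the CRE.

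Of the 21827 protein-coding genes, 3199 (14.7%) had a member within 1000 bp of a start site (7244 by replicates 2 and 3 alone), and of the 11223 with a promoter peak in all 3 libraries 28.5%. Each list below is given as genes with a member at the promoter among the genes with such a peak. These were 9 of 21 for haem synthesis and iron handling, 5 of 21 for erythroid regulators, 3 of 19 for the red cell membrane, 2 of 4 for globins, 6 of 13 for cohesin and other looping factors, 7 of 20 for nuclear-encoded respiratory genes and 6 of 20 for housekeeping genes. The promoters of 17 liver regulators and 20 plasma protein genes held no member, with a peak in all 3 libraries at 7 and 1 of them. The lists hold too few genes to set their shares apart from that of all genes with a peak, and no test was made.

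The lists of erythroid regulators, globins, haem and iron genes and the red cell membrane held 26 members at their promoters, of which 12 had a KLF match, 4 a CTCF match and 1 a GATA match. A further 7 had no match to any of the 30 motifs. Of all members within 1000 bp of a start site, 32.4% held a KLF, 12.0% a CTCF and 1.65% a GATA match. No test was made on these counts. Sequences of 6 that hold a match are printed, on the plus strand with motif matches in capitals. The member with the GATA match is not among them.
Mafk, chr5:139791462-139791497: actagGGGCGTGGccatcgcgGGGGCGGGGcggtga
Bach1, chr16:87698806-87698846: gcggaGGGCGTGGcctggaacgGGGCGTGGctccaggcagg
Blvrb, chr7:27447737-27447775: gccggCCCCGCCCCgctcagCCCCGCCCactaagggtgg
Abcb10, chr8:123983131-123983158: gtcactggcggagTGCGCATGCGCGgca
Hbq1b, chr11:32286925-32286955: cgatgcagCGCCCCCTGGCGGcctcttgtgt
Mafg, chr11:120630199-120630225: gcgagtcaTGCTGACTCAgcggatcgc
Mafk and Mafg encode small MAF proteins, the partners of NFE2 and of the haem-sensing repressor BACH1. The Mafk member lay 33 bp upstream of a start site and was 36, 40 and 38 bp wide in replicates 1, 2 and 3, with a pair of KLF matches. The Mafg member, 64 bp upstream of a start site and 27, 33 and 30 bp wide, holds an NFE2 site, which is the site that MAF heterodimers bind. Bach1 had 2 members, the printed one of 41, 53 and 53 bp and another 37 bp upstream of the start site with 26, 48 and 52 bp, both with KLF matches. Zbtb7a, a repressor of globin genes, had a member of 38, 56 and 54 bp with KLF matches, 383 bp upstream.

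Among haem and iron genes, Blvrb (biliverdin reductase B) had 3 members, of 39, 43 and 33 bp in replicate 1. Tfrc, the transferrin receptor, also had 3, of 25, 28 and 26 bp in replicate 1. Abcb10, a mitochondrial transporter of red cells, had a member of 28, 32 and 30 bp with an NRF1 match. Slc11a2, an iron transporter, had one of 47, 59 and 60 bp with SP and KLF matches, and Aco1, which binds iron-responsive elements, one of 47, 55 and 55 bp. The ferritin gene Fth1 had one of 27, 38 and 39 bp with a CCAAT box, and the haem synthesis genes Uros, Ppox and Fech had 1, 2 and 1. Of these 14 members, 1, at Ppox, had a GATA match in its window, against 1.65% of all members within 1000 bp of a start site.

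The globin members lay at Hbq1a and Hbq1b, theta-like globin genes that are near-identical copies, so reads may be shared between them. They were 41, 34 and 42 bp and 31, 45 and 45 bp wide and both held the CTCF motif. Cbfa2t3 (ETO2, a corepressor that binds TAL1 complexes) and the red cell adducin gene Add2 also had members with the CTCF motif, 625 and 164 bp upstream, of 31, 38 and 21 bp and 25, 37 and 34 bp. Epb41, the gene of membrane protein 4.1, had a member of 46, 65 and 65 bp with a KLF match, 60 bp upstream. Among looping genes, Stag1 and Pds5b had members with the CTCF motif, 40 and 38 bp upstream, of 44, 48 and 48 bp and 27, 30 and 30 bp.

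The members lay in 5880 peaks of replicate 1, of which 5268 held 1, 541 held 2 and 71 held 3 or more, and 1062 of them also held a narrow shared footprint. Of the members 96.5% were in a peak of the looser list of replicate 1, against 88.3% of the narrow shared footprints. The signal of the peak, as the authors deposited it, had a median of 3.20 at members against 3.03 at narrow shared footprints in replicate 1, 5.80 against 7.47 in replicate 2 and 3.29 against 4.69 in replicate 3, so the direction differed between libraries. At promoters it was higher at members in each library, with 4.94 against 3.58, 12.8 against 9.33 and 8.15 against 5.84. At distal sites it was 1.85 against 1.49, 2.08 against 2.43 and 1.205 against 1.53, higher at members in replicate 1 and lower in the other libraries. Signal and width come from the same cuts, so these values are descriptions.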

How the data were processed

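DNase-seq of 3 libraries was analysed from the deposited files on mm10. Per the text file the authors deposited beside each library, peaks and footprints were derived separately for every library from its alignments, the footprints also from a table of false discovery rates that was not used here. Which caller made them is not given in the sources used here. Peak signal is taken as the authors deposited it, and its scale is not stated. The fifth footprint column, deposited as the constant 0.01 in each library, was not used.

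Reciprocal overlaps, windows of 50 bp, motif matches on both strands and distances to GENCODE M21 start sites were computed in Python 3.11.15 with numpy 2.4.6 and pandas 2.3.3, after a test on simulated data. Ratios of shares add 0.5 to each count. Each footprint was placed as promoter (within 1000 bp of a start site), exon, intron or intergenic, in that order. Libraries are the replicates: footprints are not, and no p over footprints was made. Named regions were the 10 widest, for each called motif the member in the highest ranked peaks, and all members at promoters of listed genes. Regions, motifs and gene lists were chosen with earlier results of these data known. Sequences of chromosome 18 and of UTRs are not printed. The KLF region that this rule names is not reported here.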

Additional observations from a re-analysis of the deposited data

How the results depend on the processing

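The ratio of CTCF shares, wide over narrow, stayed above 1 under every alternative run other than the motif read back to front (0.402): it was 31.4 and 6.58 in windows of 30 and 100 bp, 64.3 over the footprint with 5 bp on each side, 7.75 with an overlap of 1 bp, 9.75 by the widths of replicate 3, 10.0498, 14.9 and 5.80 over all footprints of replicates 1, 2 and 3, 7.18 with 1 letter of the match free, and 8.85 to 17.7 with each replicate left out. The count of members was 4220 with a reciprocal overlap of 0.75, 11512 and 3580 with a width minimum of 20 and 30 bp, 11278 by the widths of replicate 2, and 6905 to 19898 with each replicate left out, the highest without replicate 1. Genes with a member were 5227 and 1818 with those width minimums, 5209 and 4857 by the widths of replicates 2 and 3, and 3246 to 7244 with each replicate left out. Among the 3 ways of leaving out a replicate, leaving out replicate 1 gave the highest count of genes, of motifs and words called higher and of words called lower. Its counts of members and genes use the widths of replicate 2, and its counts of motifs and words the own widths of replicates 2 and 3. For words, leaving out any replicate can only keep or raise the count.

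The promoter difference, -21.7 percentage points in the shared sets, turned to 17.5 and 21.8 over all footprints of replicates 2 and 3 and ran from -21.4 to 11.6 with each replicate left out, positive without replicate 1. The GC difference, 0.401 points, turned to -0.780 with an overlap of 1 bp, -1.93 in windows of 100 bp and -4.00 over the footprint itself, was 5.31 and 6.90 over all footprints of replicates 2 and 3, and ran from 0.354 to 6.17 with each replicate left out. The CpG difference, -0.338 per 50 bp, turned to 0.0449 with an overlap of 0.75, 0.254 and 0.291 by the widths of replicates 2 and 3, 0.110 with the width class required in all 3 libraries, 0.357 at promoters, 0.0749 at distal footprints and 1.37 and 1.60 over all footprints of replicates 2 and 3, was -1.63 over the footprint itself, and ran from -0.372 to 1.32 with each replicate left out. The difference in the median percentile of peak signal, -1.46, turned to 3.94 at promoters and 0.319 at distal footprints. The cause of these turns was not tested.

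The 5 motifs called higher became 3 at distal footprints and 3 with a narrow class of 10 to 12 bp, and 4 to 8 with each replicate left out. The 4 called lower became 0 in windows of 100 bp and 0 over the footprint with 5 bp on each side, whose windows are longer at wide footprints by construction, 1 at promoters, 2 at distal footprints, 2 without repeat-masked footprints, 2 among shared footprints by own widths, and 2 to 4 with each replicate left out. In the shared sets, the ratio at distal footprints turned for KLF (0.487), CRE (0.955), ZBTB33 (0.389, on 1 match in each class) and FOXA (1.95), and at promoters for PU.1 (1.40). With an overlap of 0.75 it turned for PU.1 (1.08), FOXA (1.33) and NFI (0.949), with the width class in all 3 libraries for FOXA (1.36), and in windows of 100 bp for FOXA (1.02). Over the footprint with 5 bp on each side it turned for PU.1 (6.39), GATA (1.00468), E-box (2.11) and FOXA (16.1). Read back to front, the ratio was on the other side of 1 for GATA (1.08), E-box (1.94) and FOXA (1.07), but for PU.1 it was 0.535, below the 0.820 of the motif. By own widths in replicates 1, 2 and 3, the reversed PU.1 string had ratios of 0.724, 0.471 and 0.487. The reversed FOXA string had 1.19, 0.643 and 0.513. Without replicate 1, neither PU.1 nor FOXA would thus be called lower. The reversed ZBTB33 and NFI strings had no match in either class, so their values (0.767 for both) come from the 0.5 added to each count and show nothing. FOXA, PU.1 and NFI rest on at most 19 members each. Words called higher and lower were 12 and 1 at a ratio of 2, 87 and 578 in windows of 30 bp, and 50 to 170 and 82 to 341 with each replicate left out. Splitting all footprints by own widths, freeing 1 letter of CTCF and leaving out CTCF windows were chosen after the data were seen.

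The reads per library are not stated, so what depth limits could not be measured. With 3 libraries the sign-flip test cannot go below 0.25.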

Other observations

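Transfer RNA genes, read by RNA polymerase III from promoter elements inside the gene, also held wide footprints. They were looked at after the 6-letter words had been seen. Of the 403 tRNA genes in the RefSeq annotation, 101 were overlapped by a member, and 116 members (1.70%) overlapped a tRNA gene, against 19 narrow shared footprints (0.364%). By own widths the shares were 1.49% of wide against 0.280% of narrow footprints in replicate 1, 0.891% against 0.0529% in replicate 2 and 1.55% against 0.137% in replicate 3. These members had median widths of 34, 41 and 40 bp in replicates 1, 2 and 3, and 74 of the 116 (63.8%) held GTTCGA, letters of the B box that transcription factor IIIC contacts. The footprint began a median of 39 bp into the gene (quartiles 18 and 45 bp), and 29 of the 116 began before the gene. Serine tRNA genes accounted for 16 of them and arginine tRNA genes for 11. The share of all 403 tRNA genes that are of each kind, or that hold GTTCGA, was not taken, so these counts show no preference. The copies of a tRNA gene are alike, and whether reads map to a single copy was not tested. In the 2 printed here on the strand of the gene, those in the highest ranked peaks, the capitals mark the B box letters.
tRNA-Leu, chr7:120917565-120917602, plus strand: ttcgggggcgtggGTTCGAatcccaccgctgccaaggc
tRNA-Ser, chr10:63429479-63429513, minus strand: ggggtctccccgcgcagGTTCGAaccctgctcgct
Another member, chr10:63429550-63429606, was 57, 63 and 65 bp wide and lies over the start of the printed serine tRNA gene. The leucine region was 38, 44 and 43 bp wide and the serine region 35, 40 and 47 bp.

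Of the members 168 lay on chromosome 18, 76 on X and 2 on Y, and 10 members in 5 groups shared their exact sequence with another member.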
